A study of Homo sapiens with 2 samples.

Results

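Calcineurin is the phosphatase that couples cytosolic calcium to the NFAT transcription factors, and 10 genes of this pathway are described here in BFTC 905, an established line of human bladder carcinoma cells. The 10 genes were taken by symbol from 55773 gene symbols in the tables: the catalytic subunits PPP3CA, PPP3CB and PPP3CC, the regulatory subunit PPP3R1, the regulators RCAN1 and RCAN3, and the transcription factors NFATC1, NFATC2, NFATC3 and NFAT5. The family was chosen by a measured value, the RPKM difference of PPP3R1, which was among the most reduced genes in these same libraries, so that difference is given as a description and supports nothing. The ANGPTL4 library came from BFTC 905 cells stably transfected with a plasmid that overexpresses ANGPTL4, a secreted inhibitor of lipoprotein lipase. The vector control library came from BFTC 905 cells stably carrying the vector control plasmid pcDNA3.1-myc-His (-) A. Both were grown in medium with 10% serum and selected as stable clones in 400 µg/ml G418, and whether a library holds 1 clone or a pool was not given in the sources used here. There was 1 library per group, so no value has a replicate check, no test between groups was possible, and every difference is one between these 2 libraries.

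Calcineurin is a heterodimer of a catalytic A subunit, which also binds calmodulin, and a calcium-binding B subunit of the EF-hand type. When calcium rises, it removes phosphates from NFATC proteins in the cytosol, which then enter the nucleus and often bind DNA beside AP-1 factors. RCAN proteins bind calcineurin and can inhibit it, and a short form of RCAN1 is itself an NFAT target, which forms a feedback loop. NFAT5 shares the DNA-binding domain of the family but is not controlled by calcineurin and drives the response to hypertonic stress.

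Values are RPKM, reads per kilobase of exon per 1000000 reads, as deposited by the authors. Whole reads could be recovered from the steps between RPKM values, which gave a depth of 3233596 reads for the ANGPTL4 library and 6572767 for the vector control library, so 1 read on 2 kb of exon equalled 0.155 and 0.0761 RPKM in these libraries. ANGPTL4 itself was at 91.2 RPKM in the ANGPTL4 library and 3.92 RPKM in the vector control library. Differences are log2 ratios of RPKM + 1, ANGPTL4 over vector control, and each ratio of RPKM carries an exact 95% interval made from its reads, for counting error only. The median log2 ratio of the 11802 genes with at least 1 RPKM in a library was -0.11, a shift against which small differences have to be read. Of 13 urothelial and epithelial markers 11 were measured, 4 higher and 7 lower in the ANGPTL4 library, with KRT5 at 469 RPKM in the ANGPTL4 library and 434 RPKM in the vector control library, and UPK3A listed at 0 in both. Among the T cell markers only TRAC passed 1 RPKM (4 and 6 reads at the likeliest exon length), CD3D, CD3E, CD3G and CD2 were listed at 0 in both libraries, and no fibroblast or endothelial marker found in the tables reached 1 RPKM.

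The PPP3R1 sequence is shown because part of it belongs to a second row of the tables. That row, RP11-474G23.1, has the same span and summed exon length as a gene that GENCODE release 29 annotates as a read-through transcript, which starts upstream of PPP3R1, runs through its middle exons and continues into WDR92, the next gene on the same strand. It has 15 exons, of which 4 are exons of PPP3R1, together 462 bases. These are 13.7% of the 3363 exon bases of PPP3R1 and 20.03% of the 2306 exon bases of the read-through. Of the rest, 1191 bases (51.6% of the read-through) are exon bases of WDR92, and 653 lie in neither gene. Reads of this row can therefore also be shared with WDR92. A shared coding exon (chr2:68188514-68188690, GRCh38, minus strand) has the same letters in both transcripts, and reads that lie within it cannot be assigned to either from their sequence. Past the last shared exon (chr2:68186468-68186652) the transcripts part, PPP3R1 going on to chr2:68178857-68181010 and the read-through to chr2:68157796-68158122. The lines give the shared exon and then the 30 bases before and the 30 bases after that point in each transcript, with the bases after it in capitals.
Shared exon: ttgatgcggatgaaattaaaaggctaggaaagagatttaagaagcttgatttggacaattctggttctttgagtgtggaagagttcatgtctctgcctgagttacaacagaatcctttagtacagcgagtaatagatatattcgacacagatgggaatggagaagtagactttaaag
PPP3R1: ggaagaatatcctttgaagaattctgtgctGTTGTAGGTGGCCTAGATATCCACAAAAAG
Read-through: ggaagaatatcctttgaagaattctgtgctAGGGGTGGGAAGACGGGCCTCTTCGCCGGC

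PPP3R1, the regulatory B subunit (chromosome 2, 68405989 to 68483369, hg19), was at 5.89 RPKM in the ANGPTL4 library, from 64 reads, and at 21.2 RPKM in the vector control library, from 468 reads. The ratio was 0.278 (95% interval 0.211 to 0.362), which is 3.6-fold lower, and the log2 ratio was -1.69. It had the 5th lowest log2 ratio of the 4190 genes with at least 10 RPKM in a library, between IFITM1 at -1.73 and PRDX3 at -1.65, and the 18th lowest of all 11802 measured genes.

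The read-through row over the same locus went the other way. RP11-474G23.1 (chromosome 2, 68358370 to 68488362, hg19) was at 5.77 RPKM in the ANGPTL4 library, from 43 reads, and at 2.38 RPKM in the vector control library, from 36 reads. Its ratio was 2.43 (1.52 to 3.89) and its log2 ratio 1.0. It held 40.2% of the reads of the pair in the ANGPTL4 library and 7.14% in the vector control library. With the reads of both rows added, the pair had 33.1 RPM (reads per 1000000 reads) in the ANGPTL4 library and 76.7 RPM in the vector control library, a ratio of 0.432 (0.347 to 0.533). The summed RPKM was 11.7 in the ANGPTL4 library and 23.5 in the vector control library, a ratio of 0.495, or a log2 ratio of -0.96 once 1 RPKM is added to both. The pair was therefore lower by 2.32-fold in reads, against 3.6-fold for the PPP3R1 row alone, and how reads of shared exons were divided between the rows is not given in the sources used here. The sum takes in all reads of the read-through row, although only 20.03% of its exon bases are shared with PPP3R1. It therefore also adds reads from outside the shared exons, and is not a corrected level of PPP3R1.

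WDR92 and PNO1, the neighbours on this stretch, were looked at after the values of PPP3R1 were seen. WDR92, the far partner of the read-through, was at 1.67 RPKM in the ANGPTL4 library and 1.01 RPKM in the vector control library, with a ratio of 1.66 (0.899 to 3.02). PNO1, which lies between WDR92 and PPP3R1, was at 14.8 RPKM in the ANGPTL4 library and 15.2 RPKM in the vector control library, with a ratio of 0.974 (0.783 to 1.21). The region of the read-through row spans all of PNO1. Overlap of their exons was not measured, so reads of PNO1 and the read-through may be shared too. Both intervals hold 1, whereas those of PPP3R1 and the read-through do not. That of WDR92 rests on 22 and 27 reads and also holds the read-through ratio of 2.43, so these 2 rows cannot be told apart. The part of this division in the PPP3R1 value was not tested beyond the sum.

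**Figure D1:**
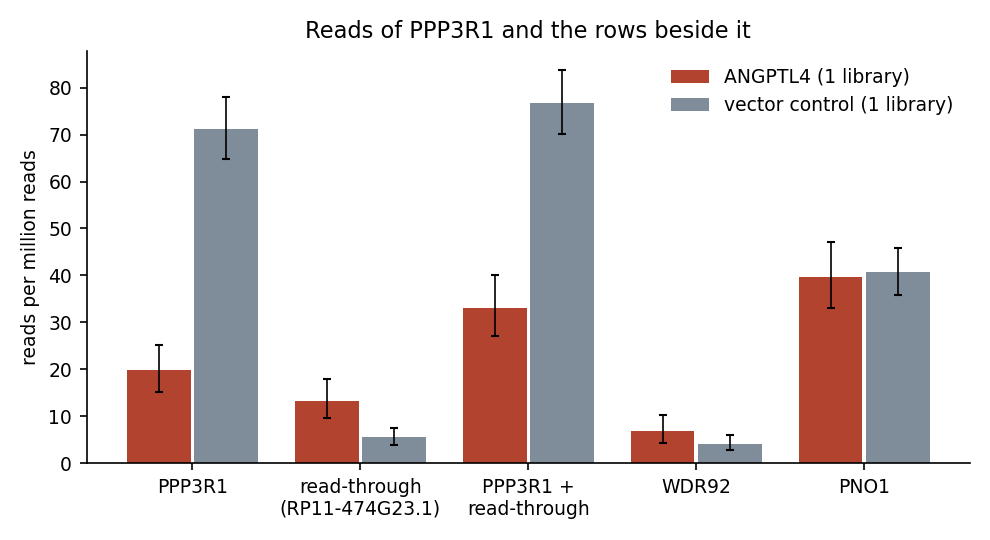
RPM, reads per 1000000 reads (y axis, from 0) for the PPP3R1 row, the read-through row RP11-474G23.1, their sum, WDR92 and PNO1 in the ANGPTL4 and the vector control library, 1 library each; error bars are exact 95% Poisson intervals for counting error. The PPP3R1 bar and the sum are lower in the ANGPTL4 library (19.8 against 71.2, and 33.1 against 76.7), the read-through bar is higher (13.3 against 5.48), and the PNO1 bars nearly match.

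The catalytic subunits differed far less than PPP3R1, and not all in the same direction. PPP3CA (chromosome 4, 101944566 to 102269435), the most abundant catalytic subunit here, was at 14.9 RPKM in the ANGPTL4 library and 19.1 RPKM in the vector control library, from 251 and 654 reads. Its ratio was 0.780 (0.672 to 0.904). PPP3CB (chromosome 10, 75196186 to 75255782) was at 7.17 RPKM in the ANGPTL4 library and 9.87 RPKM in the vector control library, with a ratio of 0.727 (0.587 to 0.895). Both of these intervals lie below 1. PPP3CC (chromosome 8, 22298332 to 22398652), known for its high level in testis, was at 4.06 RPKM in the ANGPTL4 library and 2.99 RPKM in the vector control library. From 38 and 57 reads its ratio was 1.36 (0.874 to 2.08), so a difference was not detectable at this depth. The order of the catalytic subunits was the same in both libraries, and their 95% counting intervals of RPKM did not overlap within the vector control library. In the ANGPTL4 library the intervals of PPP3CB (5.96 to 8.56 RPKM) and PPP3CC (2.87 to 5.57 RPKM) were also apart.

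Since 1 A subunit pairs with 1 B subunit and RPKM is per length, the levels can be set against each other, though only roughly. The length covers all exons of a gene, 3363 bases for PPP3R1, whose longest transcript has 3023. The levels therefore also depend on which transcripts are present, and their ratios are not counts of molecules. The catalytic subunits summed to 26.1 RPKM in the ANGPTL4 library and 31.95 RPKM in the vector control library. PPP3CA made up 57.0% of that sum in the ANGPTL4 library and 59.7% in the vector control library, and PPP3CC 15.5% and 9.37%. PPP3R1 divided by the catalytic sum was 0.225 in the ANGPTL4 library and 0.663 in the vector control library, a ratio that no scaling of a whole library can move. It was 0.446 in the ANGPTL4 library and 0.737 in the vector control library when the RPKM of every row overlapping PPP3R1 was added to it, and only the read-through among those was above 0. Transcript levels say nothing here of the amount of either protein. In a bulk library, fewer cells with a transcript and less transcript per cell cannot be told apart.

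**Figure D2:**
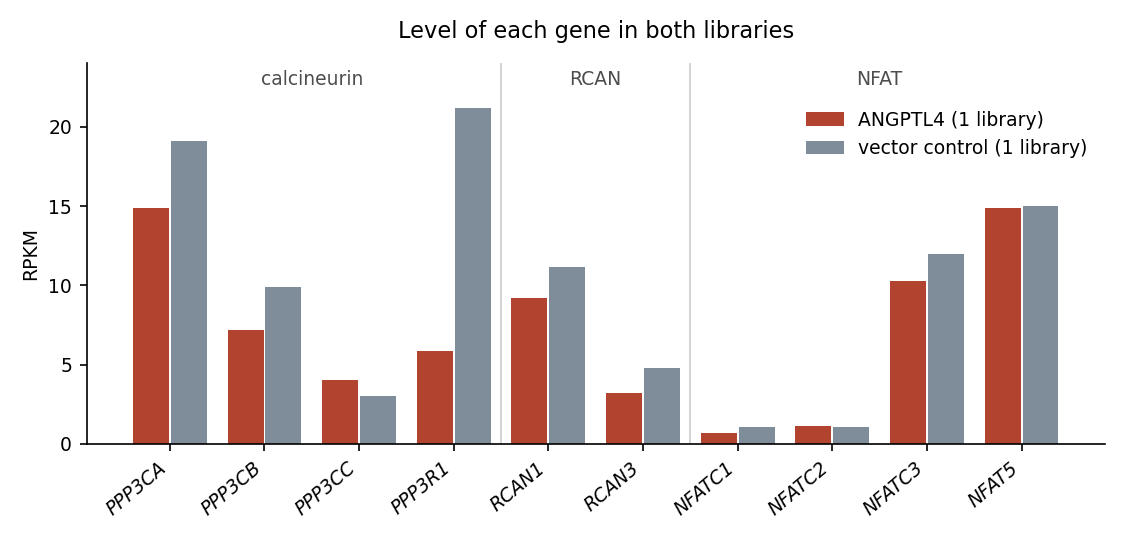
RPKM (y axis, from 0) of the 10 genes in the ANGPTL4 library and the vector control library, 1 bar per library, grouped as calcineurin subunits, RCAN genes and NFAT genes. PPP3R1 is the highest of the 10 in the vector control library (21.2 RPKM) and ranks 6 in the ANGPTL4 library (5.89 RPKM), while the bars of NFAT5 and NFATC2 nearly match.

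Both RCAN genes were lower in the ANGPTL4 library. RCAN1 (chromosome 21, 35885440 to 35987441), an inhibitor of calcineurin and a feedback target of NFAT, was at 9.20 RPKM in the ANGPTL4 library and 11.2 RPKM in the vector control library. Its ratio was 0.823 (0.681 to 0.992). RCAN3 (chromosome 1, 24829387 to 24867530), which also binds calcineurin, was at 3.24 RPKM in the ANGPTL4 library and 4.78 RPKM in the vector control library, with a ratio of 0.678 (0.513 to 0.887). The RCAN sum divided by the catalytic sum was 0.476 in the ANGPTL4 library and 0.499 in the vector control library, so inhibitor and catalytic transcripts kept nearly the same proportion.

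RCAN1 has several transcription starts, which a value per gene does not separate. The NFAT core motif, GGAAA on either strand (TTTCC on the other), was searched in the 250 bases before each RefSeq start (GRCh38.p14). The RCAN1 start that lies 88291 bases downstream of the first one had 4 matches, a count that 1.87% of the 35116 windows in the table reach or pass, and the other 5 RCAN1 windows had 0. The window before PPP3R1 had 1 match, as 55.6% of windows have at least 1. Windows were in the table for 6 of the 10 genes, and those not matched were PPP3CA, PPP3CB, PPP3CC and NFAT5. Among the others the highest count was 3, before the first NFATC2 start. A match is a description of the letters and not a binding site. Both windows are shown because RCAN1 carries the feedback start and PPP3R1 the largest difference, with the core in capitals.
RCAN1 downstream start, chr21:34526823-34527072, minus strand: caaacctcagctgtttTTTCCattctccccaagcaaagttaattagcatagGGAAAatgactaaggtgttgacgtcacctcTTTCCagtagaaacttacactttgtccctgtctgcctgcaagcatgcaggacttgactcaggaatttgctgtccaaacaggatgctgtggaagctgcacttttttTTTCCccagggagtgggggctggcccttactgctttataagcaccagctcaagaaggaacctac
PPP3R1 start, chr2:68252533-68252782, minus strand: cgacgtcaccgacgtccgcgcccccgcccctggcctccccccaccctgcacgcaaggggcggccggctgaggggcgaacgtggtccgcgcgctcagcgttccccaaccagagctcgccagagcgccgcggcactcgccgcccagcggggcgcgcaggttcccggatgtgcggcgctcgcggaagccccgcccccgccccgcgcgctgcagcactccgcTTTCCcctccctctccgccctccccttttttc

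Among the calcineurin-controlled NFAT genes, NFATC3 was by far the most abundant in this line. It made up 84.9% of the summed NFATC1, NFATC2 and NFATC3 level in the ANGPTL4 library and 84.9% in the vector control library. NFATC3 (chromosome 16, 68118654 to 68263162) was at 10.3 RPKM in the ANGPTL4 library and 11.97 RPKM in the vector control library, with a ratio of 0.856 (0.744 to 0.983) from 292 and 693 reads. NFATC2 (chromosome 20, 50003494 to 50179370), the factor studied most in T cells, was at 1.12 RPKM in the ANGPTL4 library and 1.08 RPKM in the vector control library, with a ratio of 1.03 (0.643 to 1.63). NFATC1 (chromosome 18, 77155856 to 77289325), itself known to be induced by NFAT, was at 0.706 RPKM in the ANGPTL4 library and 1.04 RPKM in the vector control library. Its exon length could not be settled. At the likeliest length it had 21 and 63 reads and a ratio of 0.678 (0.393 to 1.13), and with 20 and 60 reads the interval was 0.387 to 1.14. For NFATC1 and NFATC2 a difference was not detectable at this depth. NFATC1 passed the minimum of 1 RPKM only through the vector control library.

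NFAT5 (chromosome 16, 69598997 to 69738569), the member outside calcineurin control, was at 14.9 RPKM in the ANGPTL4 library and 15.0 RPKM in the vector control library. With 790 and 1620 reads it had the most reads of the 10 and a ratio of 0.991 (0.909 to 1.08). Its direction depends on the scaling. The log2 ratio was -0.01 as deposited, 0.14 after upper-quartile scaling and -0.17 after rescaling to a fixed RPKM total. The interval of the ratio was 1.02 to 1.21 under upper-quartile scaling and 0.808 to 0.960 under the fixed total.

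The order of levels can be read against the counting intervals. In the ANGPTL4 library the order from the top was NFAT5, PPP3CA, NFATC3, RCAN1, PPP3CB, PPP3R1, PPP3CC, RCAN3, NFATC2 and NFATC1. Neighbours in it had overlapping intervals except PPP3CA above NFATC3 and RCAN3 above NFATC2. In the vector control library the order was PPP3R1, PPP3CA, NFAT5, NFATC3, RCAN1, PPP3CB, RCAN3, PPP3CC, NFATC2 and NFATC1. There the interval of PPP3R1 (19.3 to 23.2 RPKM) overlapped that of PPP3CA (17.7 to 20.6 RPKM), as did those of NFATC3 with RCAN1, of RCAN1 with PPP3CB and of NFATC2 with NFATC1, while the other neighbours were apart. PPP3R1 thus moved through 5 places and PPP3CC and RCAN3 changed places, and the remaining genes kept their order apart from NFAT5 and PPP3CA at the top.

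Of 4 relatives outside the 10, 2 were measured, both with higher values in the ANGPTL4 library and with intervals that hold 1. NFATC2IP, which binds NFATC2, was at 5.28 RPKM in the ANGPTL4 library and 5.01 RPKM in the vector control library, a ratio of 1.05 (0.817 to 1.35). The others are named after their values were seen. NFATC4 was at 1.06 RPKM in the ANGPTL4 library and 0.830 RPKM in the vector control library, a ratio of 1.28 (0.776 to 2.08), and passed the minimum only through the ANGPTL4 library. RCAN2 was at 0 in the ANGPTL4 library and 0.0821 RPKM in the vector control library, and PPP3R2, the B subunit known from testis, was listed at 0 in both.

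Taken over the 10 genes, all of which were measured, 8 had lower and 2 higher values in the ANGPTL4 library, with a median log2 ratio of -0.26 against -0.11 for all measured genes. By the rule of at least 2-fold on the log2(RPKM + 1) scale, 1 was lower (PPP3R1) and 0 higher, where 1.91% and 1.19% of all measured genes were (3.11% in either direction). The counting interval of the ratio lay below 1 for 6 of the 10 and above 1 for 0, beside 26.9% and 8.15% (35.1% together) of the 9150 measured genes with a settled exon length. Since PPP3R1 chose the family from this contrast, nothing is read from these counts. After centring on the median gene, 4 intervals lay below 1 (PPP3R1, PPP3CA, PPP3CB and RCAN3), and after upper-quartile scaling 2 did (PPP3R1 and RCAN3) while that of NFAT5 lay above 1. RCAN1 and NFATC3 kept lower values under all 6 settings, but their intervals held 1 after centring and after upper-quartile scaling. These intervals also held 1 after rescaling without mitochondrially encoded, ribosomal protein and small RNA rows. Of the scalings, only rescaling to a fixed RPKM total left them below 1.

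**Figure D3:**
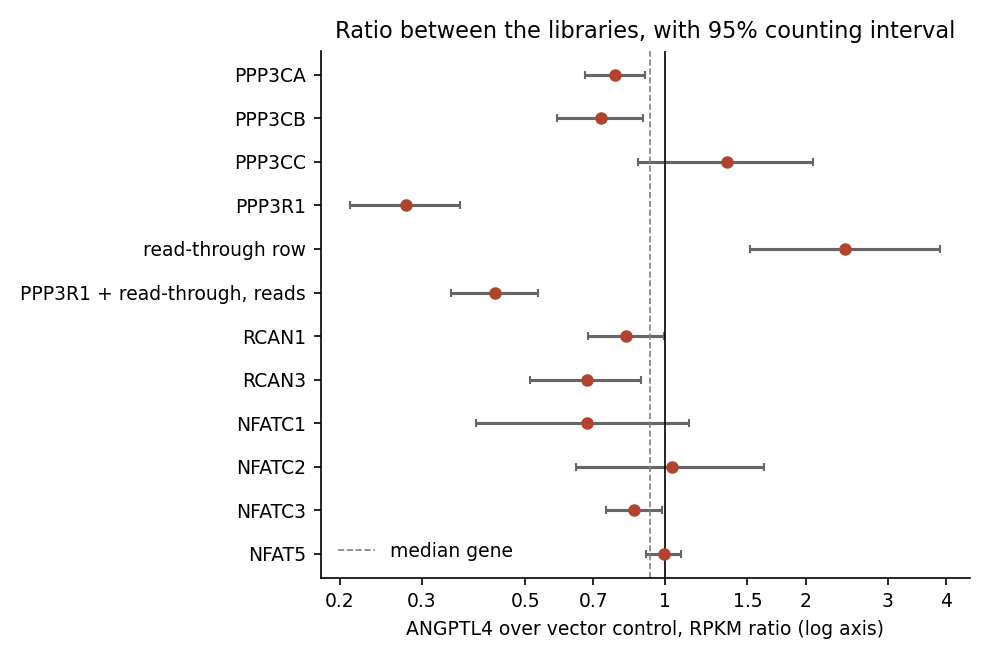
RPKM ratio of the ANGPTL4 library over the vector control library (x axis, log scale) with exact 95% counting intervals, for the 10 genes, the read-through row over PPP3R1 and the summed reads of that pair; the dashed line is the median of all measured genes (log2 ratio -0.11 of RPKM + 1) and the solid line equality. PPP3R1 (0.278) stands apart on the low side and the read-through row (2.43) on the high side, while the other 9 genes lie between 0.678 and 1.36.

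Few other rows with reads overlapped these genes. Of 24 rows whose region overlaps one of the 10 genes, 18 were listed at 0 in both libraries, 3 were above 0 but under 1 RPKM, and 3 reached 1 RPKM. Besides RP11-474G23.1 these were AP001816.1, which overlaps 499 bases at an end of PPP3CA and was at 3.13 RPKM in the ANGPTL4 library and 4.24 RPKM in the vector control library, and ESRP2. ESRP2, an epithelial splicing regulator that overlaps NFATC3 by 149 bases at its end, was at 31.0 RPKM in the ANGPTL4 library and 26.0 RPKM in the vector control library. Without knowledge of strand, reads in these overlaps cannot be told apart. No row overlapped RCAN1.

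Upstream of calcineurin, genes of calcium entry and release and of calmodulin had both higher and lower values in the ANGPTL4 library. Of 13 genes of store-operated calcium entry and release, 11 were measured, 4 higher and 7 lower in the ANGPTL4 library, 0 of them 2-fold, with a median log2 ratio of -0.05. ITPR3, an inositol trisphosphate receptor and the most abundant of them, was at 55.3 RPKM in the ANGPTL4 library and 54.3 RPKM in the vector control library. The intervals of 3 others, named after their values were seen, did not hold 1: the ratio was 1.47 (1.12 to 1.93) for STIM2, a calcium sensor of the endoplasmic reticulum, 0.665 (0.480 to 0.910) for ORAI2, a channel, and 0.820 (0.771 to 0.872) for ATP2A2, a calcium pump. Among the 10 measured genes of calcium entry and release with a settled exon length, 1 interval thus lay above 1 and 2 below. For all measured genes with a settled exon length the shares were 8.15% and 26.9%. Of 6 calmodulin genes and EF-hand relatives 5 were measured, 1 higher and 4 lower, with a median of -0.39. CALM2 was the only gene of any of these pathway lists outside the 10 that was 2-fold lower, at 18.0 RPKM in the ANGPTL4 library and 44.7 RPKM in the vector control library, a ratio of 0.404 (0.360 to 0.451). CALM3, named here after its values were seen, encodes the same protein and was at 71.1 RPKM in the ANGPTL4 library and 62.0 RPKM in the vector control library, a ratio of 1.15 (1.05 to 1.25). Calmodulin genes have processed pseudogenes, so the level of each is uncertain.

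Anchors, kinases and transport factors held few large differences. Of 10 calcineurin anchors and inhibitors 5 were measured, 1 higher and 4 lower, with a median log2 ratio of -0.10. PPIA, the cyclophilin through which cyclosporin blocks calcineurin, was at 102 RPKM in the ANGPTL4 library and 173 RPKM in the vector control library, a ratio of 0.592 (0.558 to 0.628), and has many pseudogenes. Of 11 NFAT kinases, which oppose calcineurin, 10 were measured, 2 higher and 8 lower, with a median of -0.07 and none reaching 1.5-fold on the log2(RPKM + 1) scale. CSNK1A1, the most abundant of them, was at 37.7 RPKM in the ANGPTL4 library and 42.8 RPKM in the vector control library. Of 8 scaffold and transport genes 6 were measured, 1 higher and 5 lower, with a median of -0.21. CSE1L, an exporter of importin alpha, was at 79.3 RPKM in the ANGPTL4 library and 115 RPKM in the vector control library, and NRON, a noncoding RNA that holds NFAT in the cytosol, was listed at 0 in both. Of 11 subunits of other serine/threonine phosphatases, all measured, 1 was higher and 10 lower, with a median of -0.25. There PPP2CA was at 12.5 RPKM in the ANGPTL4 library and 21.8 RPKM in the vector control library (ratio 0.575, 0.494 to 0.666), and PPP6C at 10.7 RPKM and 16.7 RPKM in these libraries (ratio 0.640, 0.531 to 0.769). The median of these phosphatase genes was close to that of the 10 calcineurin and NFAT genes.

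Downstream, the values of DNA-binding partners, substrates and target genes lay on both sides of equality. Of 11 AP-1, MEF2 and related DNA-binding partners 9 were measured, 7 higher and 2 lower in the ANGPTL4 library, 0 of them 2-fold, with a median log2 ratio of 0.18. FOS and MEF2B, both among the 7, passed the minimum only through the ANGPTL4 library, so the count and the median lean that way, and with no minimum the median was 0.11. The median was above 0 under every pseudocount, minimum and scaling tried, down to 0.02 after rescaling to a fixed RPKM total. FOS was at 1.24 RPKM in the ANGPTL4 library and 0.423 RPKM in the vector control library, from 13 and 9 reads, a ratio of 2.94 (1.16 to 7.78). Of these partners 7 had a settled exon length, with 4 intervals above 1 and 0 below. The shares for all such measured genes were 8.15% and 26.9%. Besides FOS, those above were FOSL1 (1.33, 1.21 to 1.46), JUN (1.34, 1.13 to 1.58) and FOSL2 (1.14, 1.02 to 1.28), named after their values were seen. Of 11 other calcineurin substrates 9 were measured, 5 higher and 4 lower, with a median of 0.01. CRTC3, a CREB coactivator, was at 1.40 RPKM in the ANGPTL4 library and 2.81 RPKM in the vector control library, a ratio of 0.498 (0.357 to 0.684). Of 17 NFAT target genes 9 were measured, 2 higher and 7 lower, with a median of -0.10, which was 0.02 after centring and 0.07 after upper-quartile scaling. TNF, among the 7 and named after its values were seen, passed the minimum only through the vector control library. It was at 0.738 RPKM in the ANGPTL4 library and 1.27 RPKM in the vector control library, from 4 and 14 reads. The count leans that way, and with no minimum the median was -0.09. IL2, IL4 and FASLG, targets known from T cells, were listed at 0 in both libraries. PTGS2, the inducible cyclooxygenase, was at 16.5 RPKM in the ANGPTL4 library and 32.2 RPKM in the vector control library, a ratio of 0.513 (0.448 to 0.585). VEGFA, the angiogenic growth factor, named after its values were seen, was at 27.4 RPKM in the ANGPTL4 library and 23.09 RPKM in the vector control library, a ratio of 1.19 (1.11 to 1.27). Among the 8 measured targets with a settled exon length, 1 interval lay above 1 and 3 below. For all such genes the shares were 8.15% and 26.9%. Besides PTGS2, those below were CCND1 (0.946, 0.907 to 0.988) and MYC (0.936, 0.891 to 0.983), also named after their values were seen. The log2 ratios of CCND1 (-0.079) and MYC (-0.095) were above the median of all measured genes (-0.112). Neither was therefore lower than the median gene. Of 10 NFAT5 target genes 6 were measured, 1 higher and 5 lower, with a median of -0.42, which was -0.19 with a pseudocount of 5. The higher one, named after its values were seen, was HSPA1A, a heat-shock protein with a near-identical copy, at 182 RPKM in the ANGPTL4 library and 130 RPKM in the vector control library, a ratio of 1.40 (1.31 to 1.4997). That copy, HSPA1B, named likewise, went the other way. It was at 90.4 RPKM in the ANGPTL4 library and 122 RPKM in the vector control library, a ratio of 0.743 (0.682 to 0.809). How reads were divided between these copies is not known, so neither ratio can be read alone. AKR1B1, the aldose reductase that makes sorbitol, was at 19.5 RPKM in the ANGPTL4 library and 32.2 RPKM in the vector control library, a ratio of 0.606 (0.521 to 0.703).

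**Figure D4:**
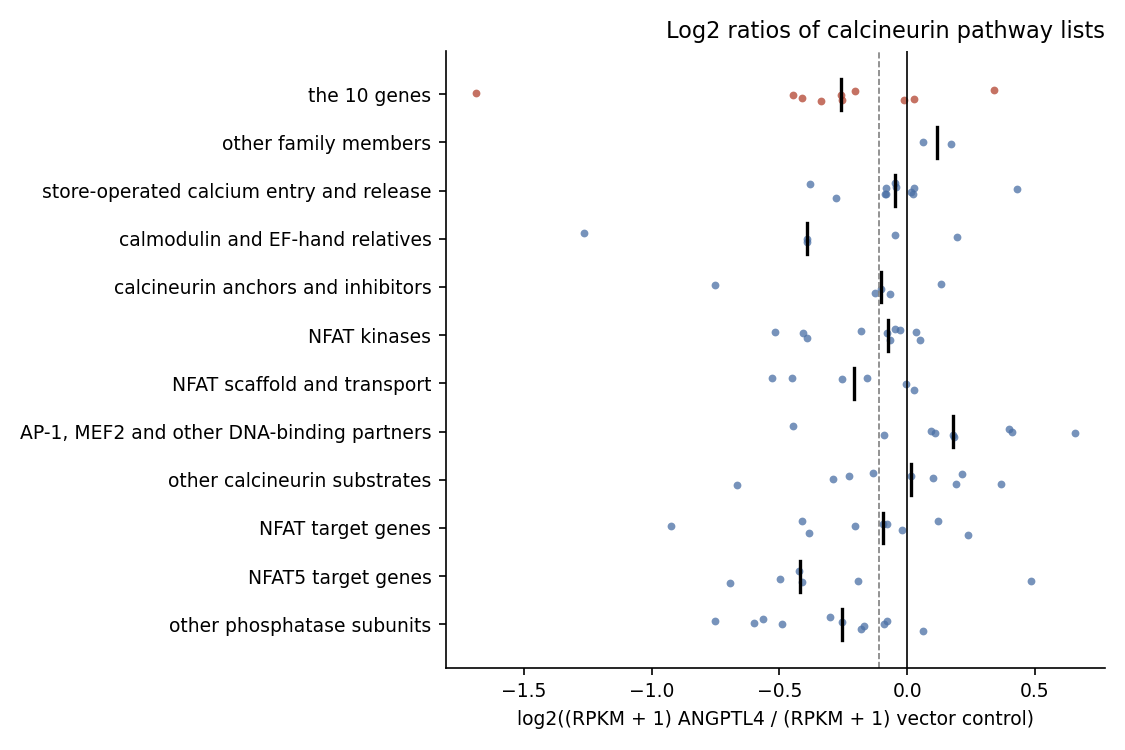
Log2 ratio of RPKM + 1, ANGPTL4 over vector control (x axis), for each measured gene (points) of the 10 calcineurin and NFAT genes and 11 pathway lists, with the median of each list as a bar; the dashed line is the median of all measured genes, -0.11. PPP3R1 (-1.69) and CALM2 (-1.26) are the points furthest to the left, and the AP-1 and MEF2 list has its bar to the right of 0, at 0.18.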

How the data were processed

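Total RNA of 2 libraries was analysed, 1 per group, assigned by the transfection named in the labels. The deposited values are RPKM, per the file headers, as the authors computed them, with 1 value for each row. Per the submitters' processing notes, hg19 was used. Aligner, counting program, annotation release, strand and treatment of ambiguous reads are not given in the sources used here, so reads of overlapping or similar genes may be divided in ways not known here.

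Rows of the same symbol were summed. The depth of each library was the smallest total at which all 13 mitochondrial coding genes gave whole reads. The exon length of a row was the length at which both libraries gave whole reads, read against GENCODE 29. It was settled for 69.8% of 18483 rows above 0 and for 9 of the 10 genes. Ratio intervals are exact conditional binomial intervals at 95% (scipy 1.17.1), levels have exact Poisson intervals, and both cover counting error only. Genes with at least 1 RPKM in a library were called measured, and 2-fold differences are on the log2(RPKM + 1) scale, which understates those of low genes. GENCODE and RefSeq follow GRCh38, and their coordinates are named as such. Recovery of reads, the ratio intervals and the 2-fold rule were tested on simulated Poisson counts at the recovered depths. Recovery of the depths and the division of reads between overlapping rows were not simulated.

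The members and lists were chosen with earlier results of these data known. Named genes are the 10 members, overlapping rows with at least 1 RPKM, and for each list up to 2 measured genes at either end that differ at least 1.5-fold on that scale, or else the most abundant one, besides those said to be named after their values were seen and list genes listed at 0. Of 155 listed symbols 154 were found. Values were recomputed with pseudocounts of 0.1 and 5, with no minimum or one of 5 RPKM, under 4 scalings, and, for the subunit ratio, without PPP3CC or with overlapping rows. Intervals under the scalings and the PPP3R1 and read-through sums were added after seeing the data.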

Additional observations from a re-analysis of the deposited data

How the results depend on the processing

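No paired analysis was possible because there was 1 library per group, and the replicate numbers carry no pairing. PPP3R1 was lower, by at least 2-fold as a row of its own, under every pseudocount, minimum and scaling tried, with log2 ratios from -1.83 to -1.27. The value of -1.27 came with a pseudocount of 5, which by construction draws ratios towards 0. Adding the read-through row moved it to -1.21 on reads and to -0.96 on RPKM. The log2 of PPP3R1 over the catalytic sum, ANGPTL4 against vector control, was -1.56, was -1.45 without PPP3CC, and was -0.72 with overlapping rows added. Of the 10 genes, 6 had an interval below 1 as deposited, 4 after centring and after rescaling without mitochondrially encoded, ribosomal protein and small RNA rows, 2 after upper-quartile scaling (1 above 1) and 7 after rescaling to a fixed RPKM total. The sign of NFATC2 changed under 1 and that of NFAT5 under 3 of 6 settings, and the other 8 kept theirs. Of 88 recomputed list medians 14 changed sign, in 5 of 11 lists. Depth limits NFATC1, NFATC2 and PPP3CC, each with 38 reads or fewer in the ANGPTL4 library, and no setting stands in for a second culture.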
